A study of Mus musculus with 605 samples.

Results

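The 8 genes described here, Sox10, Pax3, Kit, Ednrb, Erbb3, Pmp22, S100b and Fxyd1, join the neural crest and glial side of melanocyte identity. They were taken by name from the 30959 gene symbols in the single-cell tables, and all 8 have a row in every table. Sox10 and Pax3 are transcription factors of the neural crest. Kit, Ednrb and Erbb3 are receptors that neural crest descendants use to migrate, survive and divide. Pmp22, S100b and Fxyd1 are genes well known from Schwann cells, muscle or brain. Their levels were followed in melanocytes of both genotypes, and their relation to Dct and Mlana, which mark pigment cells, was measured cell by cell.

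The study asked how melanocytic nevi, dense collections of pigment cells in skin, bring about more hair growth. It profiled 605 single cells of mouse dorsal skin in 7 groups, and 566 of these passed the filters on total, mitochondrial share and genes detected. Melanocytes came from WT mice at postnatal day 56 (P56, 81 of 85 cells kept) and Mut mice at P56 (84 of 88 kept). The outgroups were bulge stem cells, the keratinocyte stem cells of the hair follicle, and myeloid cells. Bulge cells were from WT mice at P30 (84 kept) and P56 (83 kept) and Mut mice at P56 (89 kept), and myeloid cells from WT (73 kept) and Mut mice (72 kept) at P56. The labels give the genotype only as WT or Mut. In the study, mutant mice carry activated Nras under the regulatory region of the tyrosinase gene, a constitutive model of congenital nevi in which the transgene is driven in melanocytes. Bulge cells of either genotype also bear a histone-fused green reporter driven from keratin 14, by which they were sorted together with CD34. For its bulk data the study describes melanocytes with a red reporter set on by tamoxifen through a tyrosinase-driven Cre, in mutant and control mice alike. It gives no separate sort for the single melanocytes. No label names an animal, so each group is 1 sample. SDs are over cells, no test between groups was possible, and genotype cannot be told apart from plate. The study describes wild-type follicles at P56 as resting, and mutant skin as holding many growing follicles and clusters of melanocytes in the dermis. Genotype therefore cannot be told apart from hair cycle stage or melanocyte location either.

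The melanocyte label held in both groups. Each of 8 melanocyte markers, a list that includes Sox10, Dct and Mlana, was found in 10% or more of both groups, and the melanocyte score led 76 of 81 wild-type and 80 of 84 mutant cells. Of 10 Schwann cell markers, 1 was found in no wild-type cell and 3 in no mutant cell. The markers found in 10% or more of cells numbered 3 in wild-type and 2 in mutant melanocytes. At least 3 markers were held by 5 wild-type and 8 mutant cells. Their median summed level was 341 TPM in wild-type and 450 TPM in mutant cells. A single wild-type cell was led by the Schwann score and held neither Dct nor Mlana. It held Sox10 at 223 TPM, Erbb3 at 182, Fxyd1 at 248, and Pmp22 at 3358, the second highest level of Pmp22 in the group, and none of Pax3, Kit, Ednrb or S100b. Median numbers of genes detected were 2233 per wild-type and 2873 per mutant melanocyte. Keratinocyte markers were more often detected in the mutant wells. At least 3 of 12 such markers were found in 28 mutant and 4 wild-type cells, and 8 and 2 of the markers reached 10% of the cells. Their summed level per cell ran from 0 to 26348 TPM in mutant (median 21.6) and from 0 to 17393 TPM in wild-type melanocytes (median 0). Krt14 was detected in 33.3% and 9.88% of cells. Where found, its median was 407 TPM in wild-type cells and 2.99 TPM in the mutant. Differences of the members without these cells are given beside the main ones.

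Neural crest cells leave the embryonic neural tube and give rise to pigment cells, peripheral glia and neurons. Melanocytes reach the skin either directly or by way of Schwann cell precursors on nerves, and SOX10 works in both lineages. In melanocytes, SOX10 and PAX3 activate the gene of the pigment cell regulator MITF. KIT answers stem cell factor made by keratinocytes, EDNRB answers endothelin 3, and ERBB3 answers neuregulins together with a partner such as ERBB2. PMP22 is a membrane protein of compact myelin, S100B a calcium-binding protein used to stain glia and melanocytic tumours, and FXYD1, or phospholemman, a small regulator of the sodium pump.

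Promoters are shown for the members with a single listed start (Fxyd1, S100b and Ednrb) and for Kit, whose listed starts lie close together, with Dct as a pigment gene for comparison. Pmp22 has 4 listed starts and is not printed. RefSeq promoter sequences, 250 bases before to 50 bases after a start, were matched for 5 of the 8 members on GRCm38.p6. Pax3, Sox10 and Erbb3 had no entry. Capitals mark ACAAAG, a core that SOX factors bind, and CANNTG, the E-box, on either strand. CATGTG, the core of the M-box that MITF binds, is one form of CANNTG. Each line reads 5′ to 3′ in the direction of the gene. For Fxyd1, Ednrb and Kit the RefSeq start lies inside the span that GENCODE gives the gene.
Fxyd1, chr7:31054804-31055103, minus strand: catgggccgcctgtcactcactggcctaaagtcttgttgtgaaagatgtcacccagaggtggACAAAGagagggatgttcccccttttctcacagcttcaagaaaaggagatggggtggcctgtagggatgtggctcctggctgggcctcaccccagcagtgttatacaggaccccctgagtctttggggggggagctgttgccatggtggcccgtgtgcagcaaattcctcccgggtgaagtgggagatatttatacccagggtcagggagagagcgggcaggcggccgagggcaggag
S100b, chr10:76253586-76253885, plus strand: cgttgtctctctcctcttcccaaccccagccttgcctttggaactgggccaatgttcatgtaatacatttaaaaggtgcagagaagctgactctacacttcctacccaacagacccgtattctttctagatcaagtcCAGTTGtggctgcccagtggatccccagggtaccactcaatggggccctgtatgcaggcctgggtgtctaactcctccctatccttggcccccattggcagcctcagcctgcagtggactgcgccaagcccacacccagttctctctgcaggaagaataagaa
Ednrb, chr14:103843652-103843951, minus strand: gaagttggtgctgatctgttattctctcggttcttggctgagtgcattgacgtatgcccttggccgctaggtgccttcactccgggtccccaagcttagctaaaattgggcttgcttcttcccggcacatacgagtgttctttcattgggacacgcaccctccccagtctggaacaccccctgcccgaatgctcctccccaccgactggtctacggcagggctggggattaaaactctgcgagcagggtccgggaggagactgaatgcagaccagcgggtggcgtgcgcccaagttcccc
Kit, chr5:75574737-75575036, plus strand: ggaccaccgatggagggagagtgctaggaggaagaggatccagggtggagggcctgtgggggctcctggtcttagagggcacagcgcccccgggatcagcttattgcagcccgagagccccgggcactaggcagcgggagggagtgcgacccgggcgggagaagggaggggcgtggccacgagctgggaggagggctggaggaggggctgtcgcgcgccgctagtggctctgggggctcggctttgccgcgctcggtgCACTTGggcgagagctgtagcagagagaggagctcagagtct
Dct, chr14:118052197-118052496, minus strand: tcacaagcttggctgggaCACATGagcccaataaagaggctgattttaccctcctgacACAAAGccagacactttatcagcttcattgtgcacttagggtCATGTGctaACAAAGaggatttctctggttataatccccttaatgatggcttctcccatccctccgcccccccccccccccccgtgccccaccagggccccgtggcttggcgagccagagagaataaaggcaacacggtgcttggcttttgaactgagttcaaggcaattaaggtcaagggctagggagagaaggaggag

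In these windows Fxyd1 held 1 ACAAAG, starting 188 bases before the start, S100b and Kit held 1 CANNTG each, and Ednrb held none of these letters. Dct held 2 ACAAAG and 2 CATGTG. Of all 32851 promoters in the table, ACAAAG was found in 18.7%, CATGTG in 14.2% and CANNTG in 72.3%. In GRCm38 with GENCODE annotation, the other members lie as protein-coding genes at chr1:78101267-78197134 (Pax3), chr10:128567523-128589652 (Erbb3), chr14:103814625-103844402 (Ednrb) and chr15:79154908-79165240 (Sox10) on the minus strand. Kit (chr5:75574916-75656722) and Pmp22 (chr11:63128982-63159547) lie on the plus strand. None of the member promoters in the table, the 4 listed for Pmp22 and the second listed for Kit included, held CATGTG.

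The first question was how strongly each member was expressed in melanocytes of either genotype. Values are in TPM, a share of all transcripts that is corrected for transcript length, and 1 TPM was the lowest value taken as detection. In wild-type melanocytes the mean level ran from Ednrb (421 TPM), Kit (347 TPM) and Pmp22 (273 TPM) to S100b (56.8 TPM) and Fxyd1 (31.5 TPM). In mutant melanocytes Fxyd1 was first of the 8 (721 TPM) and Pmp22 was second (599 TPM), while Erbb3 was last (98.1 TPM). In both orders every gap between neighbours was smaller than the SD over cells of the higher gene.

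**Figure D1:**
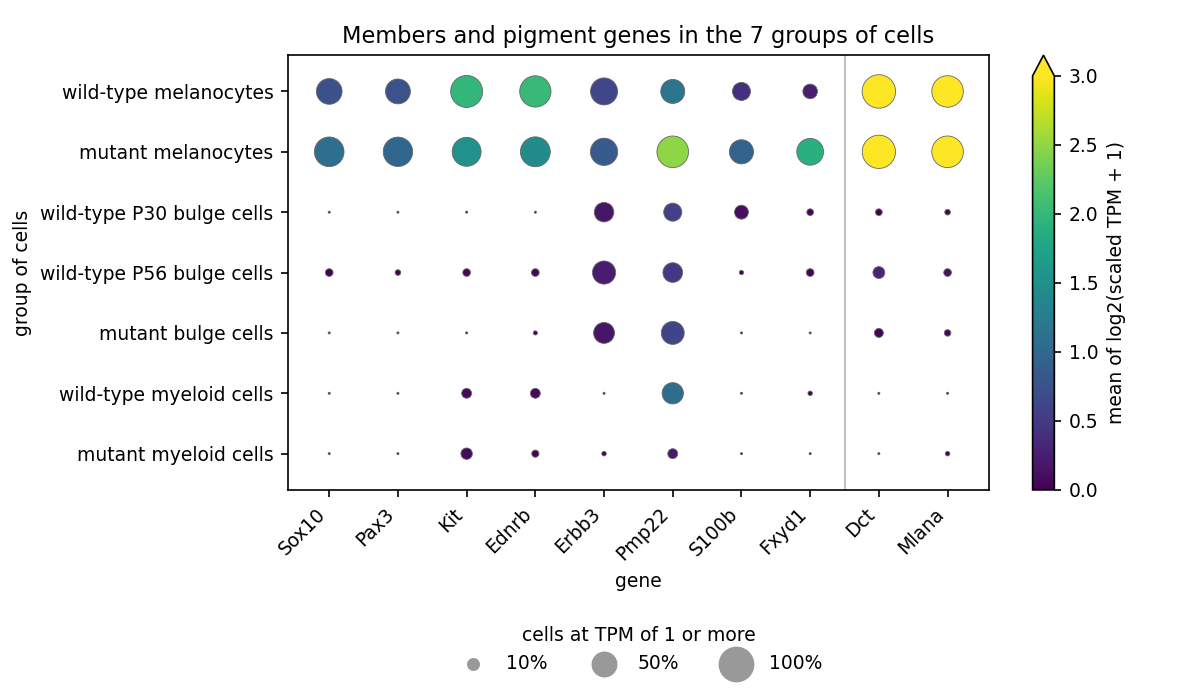
Share of cells with each gene detected at 1 TPM or more (area of the circle) and mean of log2(scaled TPM + 1) (colour) for the 8 members and the pigment genes Dct and Mlana in the 7 groups of cells. The members fill the melanocyte rows, with the circle of Fxyd1 growing from 18.5% of wild-type to 63.1% of mutant melanocytes, while Erbb3 and Pmp22 are also seen in bulge cells and Pmp22 in wild-type myeloid cells.

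Both transcription factors were found in more of the mutant cells. Sox10 ranged from 0 to 467 TPM in wild-type melanocytes with a median of 15.2, and from 0 to 813 TPM in mutant melanocytes with a median of 105. It was detected in 58% of wild-type cells (exact 95% interval 46.5 to 68.9%, n = 81) and 77.4% of mutant cells (67 to 85.8%, n = 84). Pax3 ranged from 0 to 887 TPM with a median of 31.1 in wild-type cells, and from 0 to 559 TPM with a median of 89.3 in mutant cells. It was detected in 54.3% (42.9 to 65.4%) and 76.2% (65.7 to 84.8%) of cells. In cells where it was detected, the median of Pax3 was nearly level (144 and 147 TPM), so the groups parted in the share of cells with Pax3 detected. Pax3 correlated with the number of genes detected at 0.24 in wild-type and 0.22 in mutant cells. Missed transcripts cannot be told apart from absent ones here. The intervals of shares cover counting error over cells only.

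The receptors did not differ in a common direction. Kit ranged from 0 to 1228 TPM in wild-type cells with a median of 276, and from 0 to 2432 TPM in mutant cells with a median of 202. It was detected in 90.1% (81.5 to 95.6%) and 73.8% (63.1 to 82.8%) of cells. Ednrb had medians of 302 TPM in wild-type and 158 TPM in mutant cells, highest values of 1832 and 2175 TPM, and shares of 86.4% and 78.6%. Erbb3 was found in 64.2% of wild-type and 65.5% of mutant cells, with medians of 32.4 and 72.8 TPM. All 3 receptors overlapped widely between the groups, and no more than 3 mutant cells lay above the highest wild-type cell for any of them.

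Fxyd1 and Pmp22 differed most between the groups. Fxyd1 was at 0 TPM in the median wild-type cell and reached at most 591 TPM, whereas the median mutant cell held 229.6 TPM and the highest 5754 TPM. It was detected in 18.5% of wild-type (10.8 to 28.7%) and 63.1% of mutant cells (51.9 to 73.4%), and 27 of 84 mutant cells lay above every wild-type cell. Pmp22 had medians of 1.51 and 429 TPM and highest values of 3378 and 2804 TPM. It was found in 50.6% (39.3 to 61.9%) and 88.1% (79.2 to 94.1%) of cells. Unlike Fxyd1, no mutant cell exceeded the highest wild-type cell for Pmp22. S100b was detected in 28.4% (18.9 to 39.5%) and 51.2% (40 to 62.3%) of cells, with highest values of 941 and 1524 TPM. The S100b gene (chr10:76253853-76261159, plus strand) overlaps the end of Dip2a on the other strand, and the library kit does not mark strand, so reads from the overlap cannot be told apart. Dip2a averaged 5.69 TPM in wild-type and 0.539 TPM in mutant cells.

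**Figure D2:**
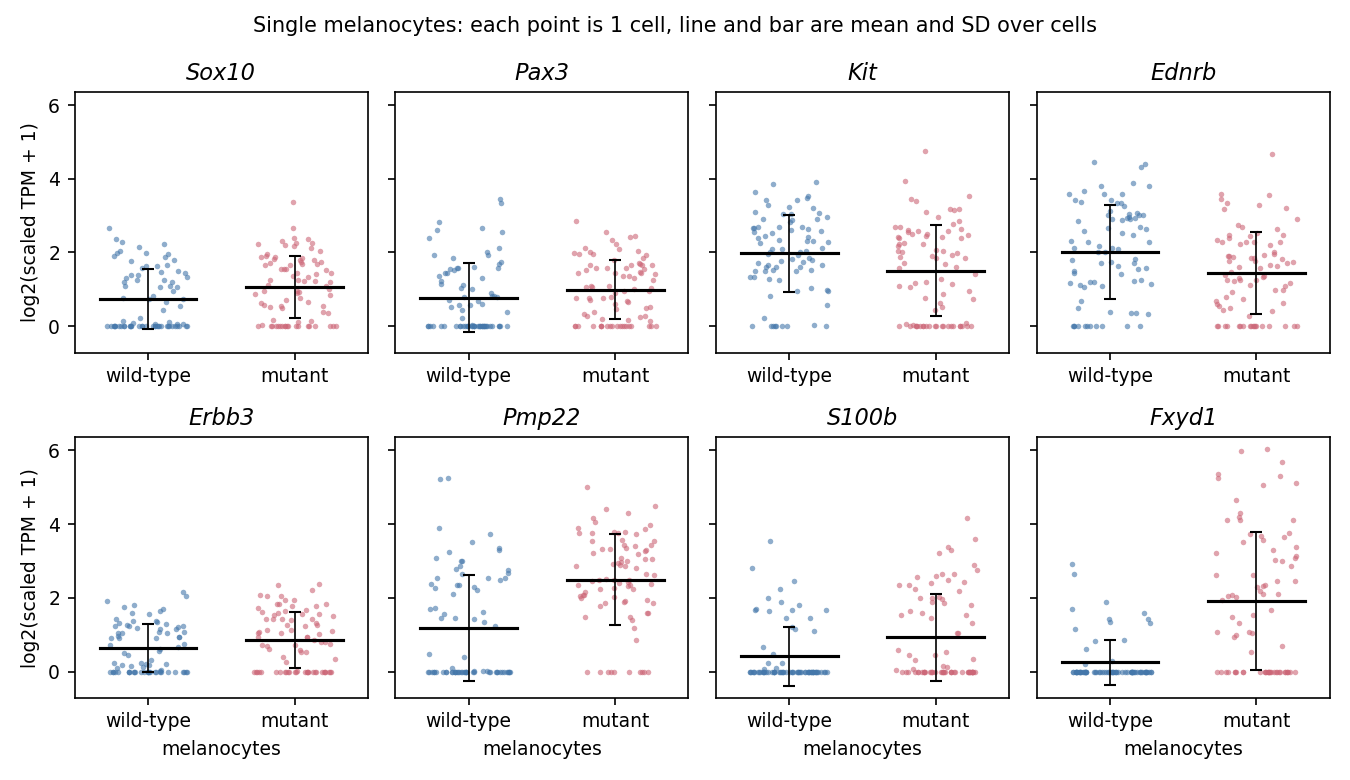
Level of each member, as log2(scaled TPM + 1), in single wild-type (blue, 81 cells) and mutant (red, 84 cells) melanocytes, with the mean (line) and SD over cells (bar). Most wild-type cells lie at 0 for Fxyd1 and S100b, and the mutant cells of Fxyd1 spread upward to the highest values of any member.

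Differences were then taken between group means of log2(scaled TPM + 1), where scaled TPM is the value divided by the cell's total and multiplied by 10000. A difference of 0.5 or more in size was used to describe a gene as past the limit. Over the 8305 genes detected in at least 10% of either group, 2.76% were past it upward and 1.42% downward in mutant melanocytes. Of the 8 members, 3 were past it upward and 1 downward, and the median difference of the members was 0.28 against 0.03 for all 8305 genes. The members and the gene lists below were chosen with earlier results of these data known. Such counts and medians therefore describe them and lend no support to that choice. Fxyd1 was higher by 1.66 in mutant cells (mean 1.91 ± 1.87 SD over 84 cells against 0.25 ± 0.62 over 81) and ranked 2 from the top of all 8305 genes. Pmp22 was higher by 1.32 and ranked 5, and S100b was higher by 0.52 and ranked 216. Ednrb, at −0.57, was the member past the limit downward. Kit stood at −0.47, Sox10 at 0.34, and Pax3 and Erbb3 at 0.22 each. For comparison, Dct differed by 0.56 and Mlana by 0.93. Each difference has no replicate check.

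The upward differences of Fxyd1 and Pmp22 were past the limit in each choice of cells tried. They were 1.80 and 1.11 in 51 pairs of cells matched on genes detected, and 1.60 and 1.35 without cells holding 3 or more keratinocyte markers. Without those cells the other members stood at 0.61 for S100b, 0.45 for Sox10, 0.30 for Erbb3, 0.23 for Pax3, −0.48 for Kit and −0.55 for Ednrb. Among cells with Dct or Mlana, which leave out the Schwann-led cell, they were 1.72 and 1.43. The differences of Ednrb, Kit, Sox10 and Pax3 varied with where on the plate a cell lay. Ednrb differed by −0.17 among cells of well rows A to D and by −0.96 among rows E to H, and Kit by −0.25 and −0.69. Sox10 stood at 0.19 and 0.47 in these sets of wells, Pax3 at 0.37 and 0.09, and Erbb3 at 0.19 and 0.26. Wild-type cells of rows E to H held Ednrb at a mean of 2.50, against 1.53 in rows A to D, while mutant cells held 1.55 and 1.36. In the matched pairs Kit was past the limit, at −0.75, and Ednrb was at −0.52.

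**Figure D3:**
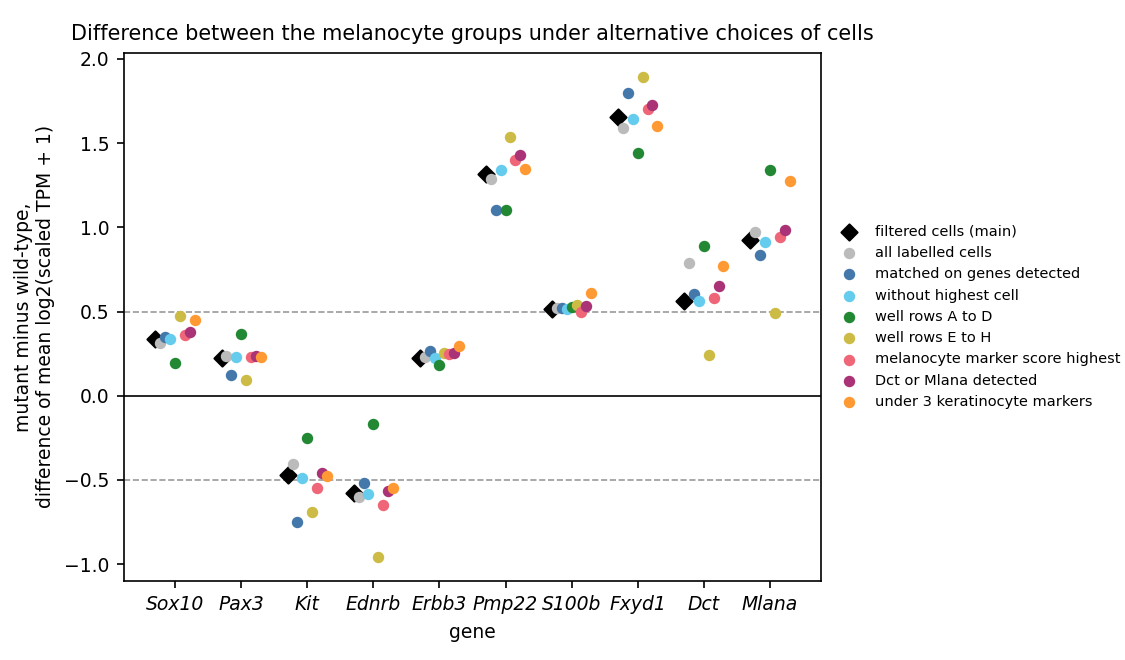
Difference of mean log2(scaled TPM + 1), mutant minus wild-type melanocytes, for the members, Dct and Mlana, over the filtered cells (black diamonds) and under 8 other choices of cells (circles); dashed lines mark 0.5 and −0.5. Fxyd1 and Pmp22 stay above 1 in each choice, Ednrb spreads from −0.96 to −0.17, and no member changes sign.

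Fxyd1 has 6 relatives in the mouse genome, and the family was not expressed alike in the melanocyte groups. All code for small membrane proteins that tune the sodium pump. Fxyd2, the gamma subunit known from kidney, was detected in 46.9% of wild-type cells (35.7 to 58.3%) and 1.19% of mutant cells (0.0301 to 6.46%). Fxyd6, known from brain, was detected in 63% of wild-type (51.5 to 73.4%) and 3.57% of mutant cells (0.743 to 10.1%). All 38 wild-type cells with Fxyd2 lay above the highest mutant cell (48.5 TPM). In log2 terms Fxyd2 differed by −1.17 and Fxyd6 by −1.01. Fxyd3 and Fxyd5 lay on the other side, at 0.91 and 0.56, with shares of 9.88% and 21% in wild-type and 50% and 45.2% in mutant cells. Fxyd4 and Fxyd7 were each found in at most 4 cells of either group. Thus 2 of the 4 relatives measured were past the limit in each direction, with a median of −0.22. Fxyd5 was at 0.11 in matched pairs of cells and 0.38 in rows A to D, while Fxyd2, Fxyd3 and Fxyd6 were past the limit on their side under every alternative tried.

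**Figure D4:**
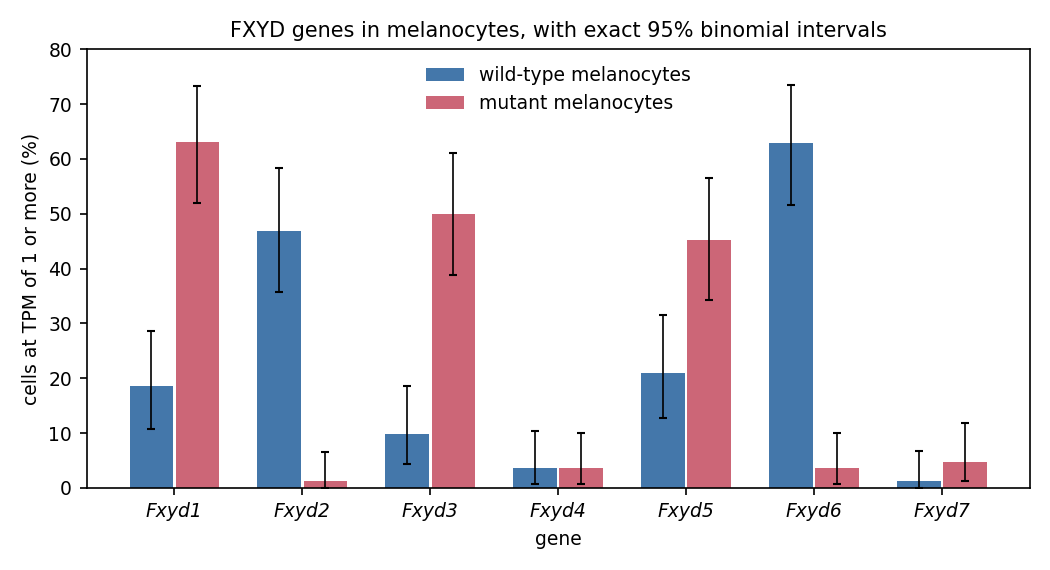
Share of wild-type (blue) and mutant (red) melanocytes with each FXYD gene detected at 1 TPM or more, with exact 95% binomial intervals for counting error. Fxyd1, Fxyd3 and Fxyd5 are higher in mutant cells and Fxyd2 and Fxyd6 in wild-type cells.

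Among the FXYD genes measured, which leave out Fxyd4 and Fxyd7, those higher in mutant cells share a chromosome. Those higher in wild-type cells do too. Fxyd5, Fxyd7, Fxyd1 and Fxyd3 lie close together on chromosome 7 of GRCm38, with Fxyd1 at chr7:31051678-31057199 and Fxyd3 at chr7:31068172-31076704 on the minus strand. Fxyd6 (chr9:45370185-45396159) and Fxyd2 (chr9:45399669-45410278) are neighbours on the plus strand of chromosome 9. Within single wild-type cells, 30 of 81 held both Fxyd2 and Fxyd6, and 10 held Fxyd1 together with Fxyd6. Fxyd2 was found in 58.8% of wild-type cells with Fxyd6 and 26.7% of those without it. For Fxyd1 these shares were 19.6% and 16.7%. In mutant cells, 53 of 84 held Fxyd1, and 2 of the 3 cells with Fxyd6 were among them.

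Relatives of S100b and Pmp22 were found on either side. Of 8 other S100 genes measured, 7 had a higher mean in mutant cells, against 60.7% of all 8305 genes, 4 were past the limit upward and 1 downward, with a median of 0.39. S100a6 differed by 0.63, S100a1 by 0.62 and S100a10 by 0.55, while S100a8, which myeloid cells and stressed keratinocytes make, differed by −0.53. Without cells holding 3 or more keratinocyte markers S100a8 was at −0.46. Of the 3 EMP genes, the family of Pmp22, 2 had a higher mean in mutant cells: Emp3 was at 0.86, Emp2 at 0.27 and Emp1 at −0.36. S100a10 was at 0.30 in the matched pairs and 0.33 in rows A to D.

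Other glial genes were detected unevenly. Of 24 on a list of Schwann cell and glial precursor genes, 9 were detected in at least 10% of either group, with a median difference of 0.15. Of these 9, 6 had a higher mean in mutant cells, against 60.7% of all 8305 genes, and 1 was past the limit upward. Cryab, a small heat shock protein, stood at 0.49 (7.41% of wild-type and 31% of mutant cells). Apod was at 0.30 (24.7% and 36.9%) and the adhesion molecule Ncam1 at −0.30 (77.8% and 67.9%). Mbp, a myelin protein, was detected in 8 wild-type cells and 1 mutant cell.

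The transcription factors that work beside SOX10 and PAX3 were close to level between the groups on the rescaled log2 scale. Of 16 listed, 10 were measured, none was past the limit, and the median difference was 0.0043. Mitf, the master regulator of pigment cells, was at 0.16 (81.5% of wild-type and 90.5% of mutant cells) and Sox6 at −0.14 (58% and 57.1%). Sox5 was at 0.07 (17.3% and 15.5%) and Tfap2b at −0.04 (70.4% and 83.3%). Without rescaling Mitf was at 0.67 and Tfap2b at 0.39, on a scale that shifts the median of all genes by 0.30. Of 18 ligands and receptors that act with the member receptors, 5 were measured and none was past the limit. Adgrg1, an adhesion receptor, stood at −0.41 (92.6% of wild-type and 82.1% of mutant cells). Met, the receptor of hepatocyte growth factor, was at 0.21 (28.4% and 53.6%) and Fgfr1 at 0.09 (13.6% and 26.2%). In rows E to H Met was at −0.005 and Fgfr1 at −0.08. Erbb2, the partner of Erbb3, was detected in 7.41% of wild-type and 29.8% of mutant cells, with a difference of 0.13. The Kit ligand gene Kitl was found in 4 wild-type and 2 mutant melanocytes.

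The outgroups showed which members mark the melanocyte lineage in these plates. Sox10 and Pax3 were detected in no P30 bulge, mutant bulge or myeloid cell, which allows shares of up to 3.57%, 3.37%, 4.11% and 4.17% of P30 bulge, mutant bulge, wild-type myeloid and mutant myeloid cells. In wild-type P56 bulge cells, Sox10 was found in 4 of 83 cells and Pax3 in 2. There, 4 wells held at least 3 of 10 pigment genes, with Dct between 2254 and 9809 TPM. These 4 wells held all the Kit and Ednrb detected in that group, both Pax3 cells and 2 of the 4 Sox10 cells. Kit was also found in 6 wild-type and 8 mutant myeloid cells (8.22% and 11.1%), and Ednrb in 6 and 3.

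Erbb3 and Pmp22 were shared with other lineages. Among bulge cells Erbb3 was found in 33.3% at P30, 47% in P56 wild-type and 38.2% in mutant skin, at means of 12.2, 18 and 13 TPM against 63.3 and 98.1 TPM in wild-type and mutant melanocytes. Among myeloid cells it was found in 1 of 72 in the mutant group and in none of 73 in the wild-type group. Pmp22 was found in 28.6%, 33.7% and 46.1% of the same bulge groups. In myeloid cells it was found in 39.7% of wild-type (28.5 to 51.9%) and 8.33% of mutant cells (3.12 to 17.3%), with means of 264 and 56.8 TPM. S100b was seen in 14 of 84 bulge cells at P30, 1 of 83 in the wild type at P56 and 0 of 89 in the mutant, which allows a share of up to 3.37%, and Fxyd1 in 3, 4 and 0 of them.

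In log2 terms wild-type melanocytes exceeded wild-type P56 bulge cells by at least 0.5 for 5 of 8 members, where 3.11% of all 10059 genes measured did so. Mutant melanocytes exceeded mutant bulge cells for 8 of 8, against 3.88% of genes. Against myeloid cells the counts were 5 of 8 in wild-type (6.55% of genes) and 8 of 8 in mutant cells (7.9% of genes). The members were picked as melanocyte genes, so these counts describe them and lend no support to that choice. Median differences of the members were 0.70 and 1.26 against bulge cells and 0.68 and 1.24 against myeloid cells, for wild-type and mutant. Fxyd1 exceeded bulge cells by 0.22 in wild-type and 1.91 in mutant melanocytes. The bulge means were 0.03 and 0, so these values restate the difference between the melanocyte groups. Pmp22 exceeded myeloid cells by 0.11 in wild-type and by 2.30 in mutant melanocytes.

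Of 14 pigment genes listed, 13 were measured and 12 of these had a higher mean in mutant cells, where 60.7% of all 8305 genes did. Of the 13, 3 were past the limit upward and 1 downward, and the median was 0.36. Mlana and Dct were joined by Slc24a5, a melanosome ion exchanger, at 0.68 (37% of wild-type and 60.7% of mutant cells). Pmel, which codes for the fibril protein of melanosomes, stood at −0.65 and was reversed at 0.30 in rows A to D.

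A further question was whether the members follow pigment genes from cell to cell. Dct was detected in 80 of 81 wild-type and 82 of 84 mutant melanocytes, at means of 10589 ± 6510 and 16854 ± 9429 TPM (SD over cells). Mlana was detected in 71 and 74 cells at means of 953 ± 779 and 2362 ± 2332 TPM. Spearman correlations were taken over the cells of each group, which share a plate and differ in the number of genes detected, and are given as descriptions. Dct and Mlana correlated with each other at 0.50 in wild-type and 0.36 in mutant cells. The members correlated with Dct at a median of 0.04 in wild-type (range −0.11 to 0.22) and 0.10 in mutant cells (−0.05 to 0.30). With Mlana the medians were 0.09 (−0.05 to 0.20) and 0.06 (−0.19 to 0.23).

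The highest value with Dct in wild-type cells was that of Pax3 (0.22), followed by Ednrb and S100b (0.18 each). In mutant cells it was that of Kit (0.30), followed by Ednrb (0.22). Fxyd1 had the lowest value with Mlana in mutant cells, at −0.19. Across the pigment genes found in 25% or more of a group, Kit was positive with 13 of 13 in mutant and 10 of 11 in wild-type cells, and Ednrb with 13 of 13 and 11 of 11. Fxyd1 was positive with 2 of 13 and 3 of 11. In mutant cells Kit correlated at 0.50 with Tyrp1 and 0.49 with Pmel, which code for melanosome proteins, and Fxyd1 at −0.44 with Trpm1, a melanocyte ion channel gene.

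Detection told the same genes apart less sharply, because nearly every cell held Dct. Among the 10 wild-type cells without Mlana, 7 held Kit, 2 held Pmp22 and 3 held Fxyd1. Among the 71 with Mlana, 66, 39 and 12 did. In mutant cells without Mlana, 4 of 10 held Kit, 7 held Pmp22 and 7 held Fxyd1. Among the 74 with Mlana, 58, 67 and 46 did. The 2 mutant cells without Dct, which lacked Mlana too, held none of the members but S100b, at 4.27 TPM in 1 of them. The highest marker score of these 2 cells was the keratinocyte score in the one with S100b and the endothelial score in the other.

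**Figure D5:**
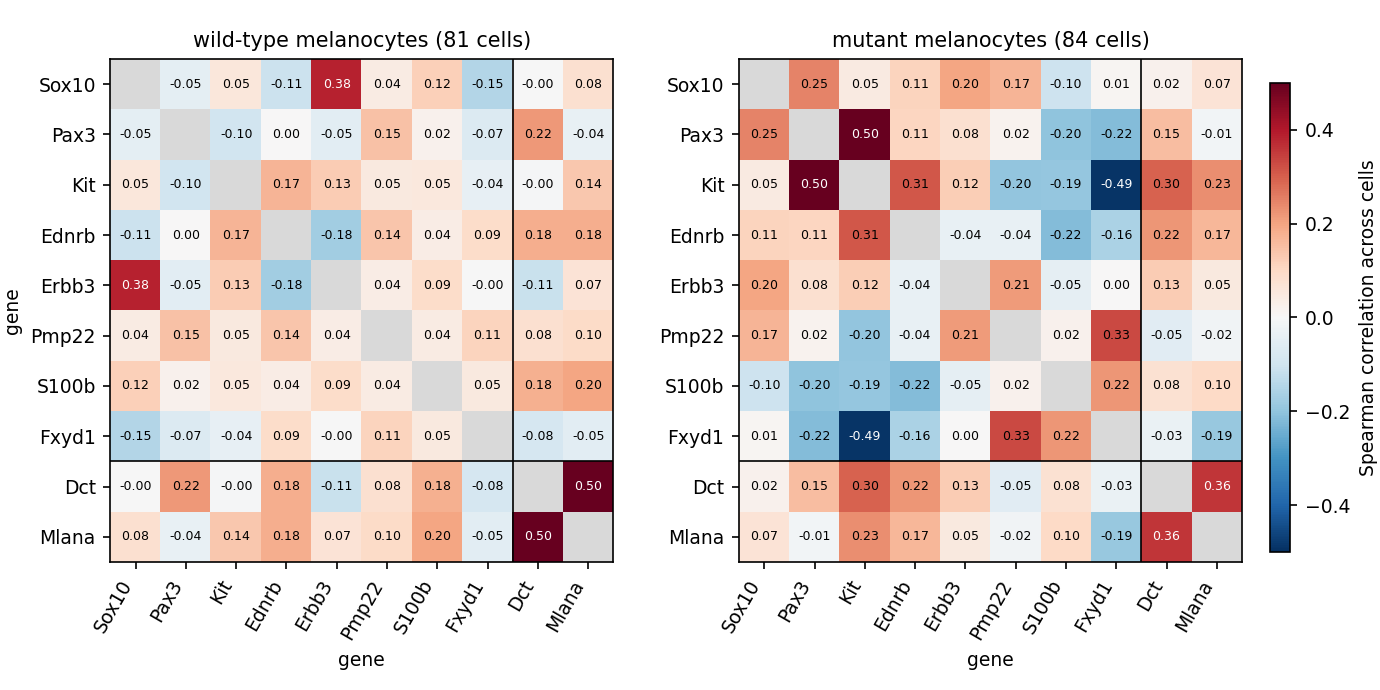
Spearman correlation across cells between each pair of members, Dct and Mlana, in wild-type (left, 81 cells) and mutant (right, 84 cells) melanocytes, with red for positive and blue for negative values. Kit with Pax3 (0.50) and Kit with Fxyd1 (−0.49) stand out in the mutant panel, and Sox10 with Erbb3 (0.38) in the wild-type panel.

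Among themselves the members were only weakly related in wild-type cells. Over 28 pairs the Spearman correlation had a median of 0.04 and ran from −0.18 to 0.38. The highest value was that of Sox10 with Erbb3 (0.38), a receptor gene known as a SOX10 target in glia, and both were detected together in 35 of 81 cells. The same pair stood at 0.20 in mutant cells.

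In mutant cells the range was wider, from −0.49 to 0.50. Kit correlated with Pax3 at 0.50 and with Ednrb at 0.31, and with Fxyd1 at −0.49. In wild-type cells these pairs stood at −0.10, 0.17 and −0.04. Whether the genotypes differ in these relations was not tested. Pmp22 correlated with Fxyd1 at 0.33 in mutant and 0.11 in wild-type cells. The number of genes detected correlated with Kit at 0.22 and with Fxyd1 at −0.33 in mutant cells, and given that number the rank correlation of Kit with Fxyd1 was −0.45 and of Kit with Pax3 was 0.47.

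Joint detection shows the same relation in counts. Of the 84 mutant cells, 62 held Kit and 22 did not. Fxyd1 was found in 20 of the 22 cells without Kit and in 33 of the 62 with it, while Pax3 was found in 7 of the 22 and 57 of the 62. Sox10 was found in 12 and 53, Ednrb in 10 and 56, and Pmp22 in 18 and 56. S100b was found in 15 of the 22 and 28 of the 62. Dct was still found in 20 of the 22 cells without Kit. Wild-type cells without Kit numbered 8, of which 2 held Fxyd1 and 3 held Pax3.

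Counting members per cell, wild-type melanocytes held a median of 5 of the 8 (range 1 to 8) and mutant melanocytes a median of 6 (range 0 to 8). At least 6 were found in 17 of 81 wild-type cells (21%) and 51 of 84 mutant cells (60.7%). In the 51 matched pairs the medians were likewise 5 and 6, and at least 6 members were found in 15 wild-type and 26 mutant cells (29.4% and 51%). All 8 members together were found in 2 wild-type and 8 mutant cells.

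Lastly, each member was set beside 2605 genes found in 25% or more of wild-type and also of mutant melanocytes. Genes were ordered by the mean of the Spearman correlations with the member in wild-type and in mutant cells. The genes named are the highest of 2605 for each member, and whether unrelated genes would reach such values was not tested. Kit had the closest companions, with Cdh3 (P-cadherin) at 0.48, the receptor gene Gpr37 at 0.42, Tm4sf1 at 0.41, Plat at 0.40 and Trpm1 at 0.39. Sox10 was nearest to Erbb3 (0.29), followed by Mbnl1 (0.28), Ndufb8 (0.27), and Cox6c and Polr2k (0.25 each). Pax3 was nearest to Eci2 (0.35), Sirt7 (0.33), Snrpd2 and the homeobox gene Alx1 (0.31 each) and Cdh3 (0.28). Some of these means joined unequal values. Mutant against wild-type, Cdh3 with Pax3 stood at 0.49 and 0.08, and Plat with Kit at 0.65 and 0.16.

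Ednrb was nearest to Gabarapl1 (0.29), Ncam1 (0.28), Gng12 (0.27) and the pigment cell genes Bace2 and Slc24a5 (0.26 each). Erbb3 was nearest to Tanc1 (0.30), Sox10 (0.29), Mkln1 (0.28), the adaptor gene Gab1 (0.26) and Creg1 (0.25). Fxyd1 was nearest to Rnase4 (0.31), Il6st (0.29), Plscr4 (0.29), Tmed10 (0.28) and Cd59a (0.26), with Rnase4 at 0.47 in mutant and 0.16 in wild-type cells and Cd59a at 0.37 and 0.15. Pmp22 was nearest to Chp1 and Art3 (0.27 each), Ndfip1 and Riok3 (0.26 each) and Sec22b (0.25), with Art3 at 0.38 in mutant and 0.16 in wild-type cells. S100b was nearest to Mcrs1 (0.26), Chchd10 and Pnkd (0.25 each), and Atp6v0c and Rpgrip1 (0.24 each). Apart from Kit, no member had a companion above 0.35.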

How the data were processed

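Single cells were captured on microfluidic chips and full-length cDNA was amplified, and the authors left out chambers seen to hold no cell or several. For alignment the authors used STAR, given as 2.4.2 in the submitters' processing notes, with GRCm38 (mm10), and RSEM for quantification. The methods name FPKM, but the deposited values are in TPM, in 7 tables with a column for each cell. TPM keeps no read depth, so depth per cell is unknown here. No doublet caller was run. A single column (1) of wild-type myeloid cells had no matching label and was left out, and the 77 mutant myeloid columns carry no well and entered by group.

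Tables were joined by identifier (31002, giving 30959 symbols, several identifiers of a symbol averaged). Filters asked for a summed TPM of 750000 or more, mitochondrial TPM of 20% or less, and 2000 to 7000 genes above 0 in bulge cells or 1000 or more in other cells. No cell had values identical to another's. Each cell was scaled to 10000, and log2(value + 1) was taken, a scale on which the differences of low genes are understated. Intervals of shares are exact 95% binomial intervals (Clopper-Pearson), and where no cell held a gene the limit is 3 cells of the total. From each of 7 gene lists, up to 4 genes with the largest difference among those detected in at least 10% of either group were named, and for each member the 5 genes with the highest mean correlation, leaving out sex-linked, predicted, mitochondrial and ribosomal genes. Further genes (Mbp, Kitl, Fxyd4, Fxyd7, Krt14, Tyrp1, Trpm1, Dip2a, C1qa) were named after their values were seen. Some genes of the Schwann cell and glial lists are not reported here by name. Cells were matched on genes detected within 5%. The members and lists were chosen with earlier results of these data known. Steps were tested on simulated data. Differences and correlations were recomputed under other scales, pseudocounts, detection limits and choices of cells; those without keratinocyte-marker cells, for Pmp22 in myeloid cells and for pairs of genes were added after seeing the data. SciPy 1.17.1, pandas 2.3.3 and NumPy 2.4.6 were run under Python 3.11.15.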

Additional observations from a re-analysis of the deposited data

Results flagged for a closer look

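Pmp22 lay past the limit of 0.5 in opposite directions in melanocytes and myeloid cells. Mutant minus wild-type, it differed by 1.32 in the former and by −0.88 in the latter, and the difference between the cell types was not tested. The myeloid value stayed between −2.81 and −0.79 under 6 alternatives. In wild-type myeloid cells, 21 of the 29 cells with Pmp22 also held C1qa, a complement gene of macrophages, and the Spearman correlation of Pmp22 with C1qa over 73 cells was 0.74. C1qa itself was found in 31.5% of the wild-type and 12.5% of the mutant cells, and its part in the Pmp22 difference was not tested.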

How the results depend on the processing

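No paired analysis was possible because the labels give wells and no replicate numbers. The scale moved the sizes most. With log2(TPM + 1) and no rescaling, 8 members were past the limit in mutant against wild-type melanocytes with a median of 1.52, and medians were 2.74 and 5.30 against bulge cells and 3.78 and 5.30 against myeloid cells, wild-type then mutant. With a pseudocount of 0.1 the count was 7, and the medians were 0.83, 1.64, 3.25, 2.08 and 3.14 in that order. These scales shift the median difference of all genes by 0.30 and 0.12 and put 39.1% and 19% of genes past the limit upward, and no member changed sign. Other alternatives gave 3 to 5 members past the limit. Median correlations with Dct were 0.11 (wild-type) and 0.21 (mutant) by Pearson, 0.091 in all labelled wild-type cells, and −0.017 and 0.026 without cells holding keratinocyte markers, an alternative chosen after the data were seen. In mutant cells the median with Mlana was −0.017 in cells led by the melanocyte score, 0.0012 in cells with Mlana and −0.0036 without cells holding keratinocyte markers. Pmel was reversed, at 0.30 against −0.65, in well rows A to D. Causes were not tested. Raising the detection limit to 10 TPM left each member's share in melanocytes within its interval.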

Other observations

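The pigment genes also varied with the position of a cell on the plate. In wells of rows E to H, Dct differed by 0.24 between mutant and wild-type melanocytes, Mlana by 0.49 and Pmel by −1.62. In rows A to D the same genes differed by 0.89, 1.34 and 0.30. Fxyd1 and Pmp22 were past the limit upward in both sets of wells (1.44 and 1.10 in rows A to D, 1.89 and 1.54 in rows E to H), and S100b was at 0.52 and 0.54. The labels do not say what differed between the rows of a plate.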
